A study of Mus musculus with 3 samples.

Results

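Skeletal muscle sarcomere genes were followed in RNA of the mouse posterior frontal suture, a fibrous joint on the cranial midline between the frontal bones. The set held 10 genes: Acta1, Ckm, Mylpf, Myl1, Tnnt3, Tnni2, Tnnc2, Myh3, Myh8 and Myh4. Every array spot that was not a control and whose gene name was one of these symbols was taken. That gave 16 probes with 1 spot each, of 55680 probes on 59305 spots for 35019 gene names. The spots were taken by gene name and not by signal, as a readout of muscle fibres attached to the dissected tissue, and the 10 genes were listed with earlier results of these data known.

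The 3 samples were C57BL/6 sutures of Runx2+/+ mice at postnatal day 5 (P5 wild type), Runx2+/+ mice at postnatal day 7 (P7 wild type) and Runx2+/- mice at postnatal day 7 (P7 Runx2+/-), which carry 1 functional copy of Runx2, the transcription factor required for osteoblast formation. Total RNA was extracted with ISOGEN, amplified and Cy3-labelled, and each group was hybridised to 1 one-colour Agilent array. The labels do not give the number of mice behind an array, or how much tissue beside the suture was taken. No group has a replicate, so a difference below is one between 2 arrays, without a replicate check or p-value. Repeated spots of other probes give the technical error of a log2 difference, an SD of 0.21 for P7 against P5 wild type, 0.19 for the genotypes at P7 and 0.18 for Runx2+/- at P7 against the wild type at P5.

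The arrays differed in brightness. The P7 wild-type array stood apart as the dimmest, with 29.2% of probes well above background, against 40.1% for P5 wild type and 47.3% for Runx2+/-. The processed signal, the software's background-corrected brightness, had a 75th percentile of 22.8, 52.1 and 124 intensity units, in the same order. The software marked the dimmest array as one to evaluate, with a median variation of 8.10% between spots of repeated probes against 6.95% for P5 wild type and 5.35% for Runx2+/-. No spot was saturated. Levels across arrays were therefore compared as log2 signal above each array's own 75th percentile, and unscaled intensities are printed beside them.

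A sarcomere is the contractile unit of striated muscle, in which thin filaments of actin slide past thick filaments of myosin. Calcium released in the fibre binds troponin C, which shifts troponin I and troponin T on the thin filament and lets myosin heads attach. Fibres change their myosin heavy chain as they mature, from the embryonic chain Myh3 and the perinatal chain Myh8 to the adult fast chains Myh2, Myh1 and Myh4, while Myh7 serves slow fibres and the heart. Muscles of the scalp and jaw lie on the skull vault, so a suture dissection can carry some fibres.

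Of the 10 genes, 6 gave a signal well above background on at least 1 array: Acta1, Tnni2, Tnnt3, Tnnc2, Myl1 and Myh8. Ckm, Mylpf, Myh3 and Myh4 gave none on any array. By probe, 7 of 16 were measured at P5, 4 of 16 in the P7 wild type and 7 of 16 in the Runx2+/- sample, and all were among the same 7 probes. Of all probes, 40.1%, 29.2% and 47.3% were measured, in the same order. Read by the brightest probe, 6, 3 and 6 of the 10 genes were measured, against 48.5%, 37.5% and 55.4% of all genes. Counts near these shares do not set the members apart. The lowest signal of any probe well above background was 12.0 intensity units at P5, 13.3 in the P7 wild type and 13.1 in the Runx2+/- sample.

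**Figure D1:**
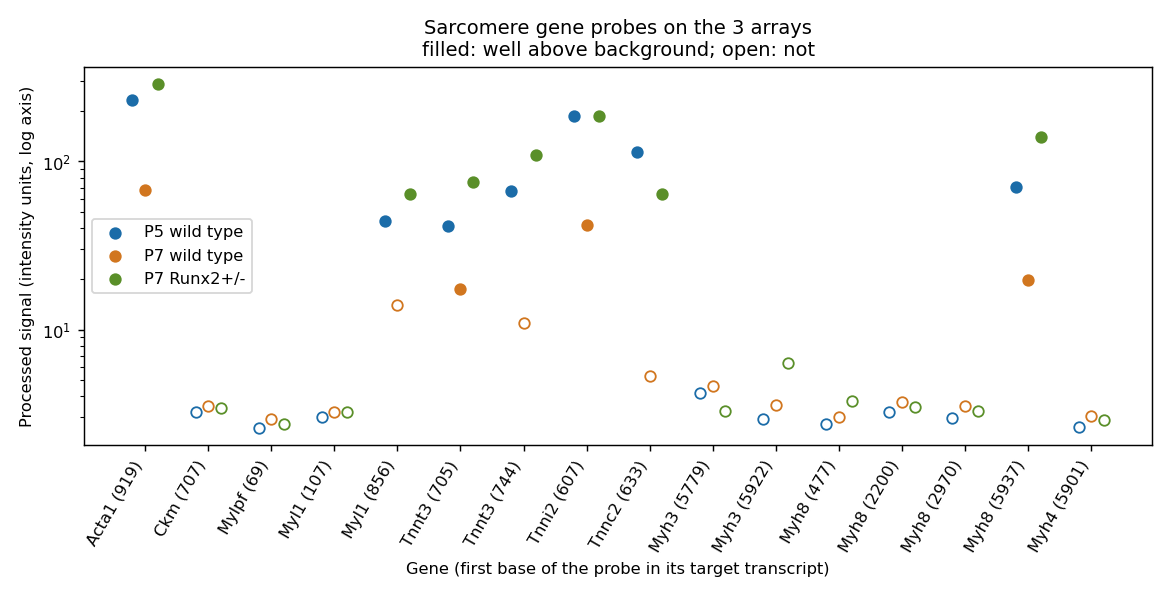
Processed signal of every sarcomere gene probe (log axis, intensity units) on the 3 arrays, 1 spot per probe and array, with the first base of the probe in its transcript in brackets. Filled points are well above background and open points are not: 7 probes reach the filled level, and the 9 others lie between 2.59 and 6.33 on all 3 arrays.

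The probes are single strands of 60 bases. Those shown here carry the main results: the Acta1 probe and the 3′ Myh8 probe, which were measured on all arrays, the Myh3 probe that can be set beside Myh8 base by base, and both Tnnt3 probes, which disagreed. In the Myh8 and Myh3 probes capitals mark the aligned bases that differ between them, and in the Tnnt3 probes capitals mark the stretch that both hold. Each is given 5′ to 3′ in the deposited letters.
Acta1: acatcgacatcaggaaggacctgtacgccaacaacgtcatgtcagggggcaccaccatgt
Myh8: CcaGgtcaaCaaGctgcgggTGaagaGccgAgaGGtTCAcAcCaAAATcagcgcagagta
Myh3: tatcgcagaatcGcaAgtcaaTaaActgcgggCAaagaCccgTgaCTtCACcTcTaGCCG
Tnnt3 from base 705: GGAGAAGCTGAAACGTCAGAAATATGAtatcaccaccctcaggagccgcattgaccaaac
Tnnt3 from base 744: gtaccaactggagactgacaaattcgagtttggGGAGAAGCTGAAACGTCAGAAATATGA

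On mm9, the build of the deposited files, the Acta1 probe lies at chr8:126416197-126416256 on the minus strand, the Myh8 probe at chr11:67121925-67121984 and the Myh3 probe at chr11:66915107-66915166, both on the plus strand. The Tnnt3 probe from base 744 lies at chr7:149698467-149698526, and the one from base 705 spans chr7:149698500-149700262, so that it crosses an intron. The base numbers count along different Tnnt3 transcripts, and in the genome the probes overlap by 27 bases. Over the 48 bases that align, the Myh8 and Myh3 probes hold 29 identical and 19 different bases, an identity of 60.4%. Probes measured on at least 1 array held 36.7% to 55% G and C (median 48.3%), and those measured on none held 35% to 55% (median 45%).

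Acta1 encodes skeletal actin, the backbone of the thin filament. Its probe read 231 intensity units at P5, 67.7 in the P7 wild type and 290 in the Runx2+/- sample, with software errors of 23.3, 7.68 and 29.2 units. In log2 units above the 75th percentile these are 2.15, 1.57 and 1.22. The signal was well above background on all arrays, and the scaled level was highest at P5 and lowest in the Runx2+/- sample. The P7 wild-type level was 0.57 log2 units below P5 (1.49-fold), and the Runx2+/- level was 0.35 below the P7 wild-type level (1.28-fold). Both differences exceed the technical SD, which leaves out any spread between mice.

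Tnni2 encodes the fast-fibre troponin I, the subunit that blocks myosin binding at rest. It read 186 intensity units at P5, 42.1 at P7 in the wild type and 187 in the Runx2+/- sample, and its scaled levels of 1.84, 0.89 and 0.59 followed the order of Acta1. The P7 wild-type level was 0.95 log2 units below P5 (1.93-fold). The Runx2+/- level was 0.30 below that of the P7 wild type (1.23-fold), little more than the technical SD of 0.19.

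Tnnc2 encodes the fast-fibre troponin C, the calcium sensor. Its probe read 114 intensity units at P5, 5.30 in the P7 wild type, where it was not well above background, and 64.5 in the Runx2+/- sample. It had the largest difference for age among the members and was the only detected one whose unscaled signal was lower in the Runx2+/- than in the P5 sample. P7 wild type was at least 3.73-fold lower than P5, a bound set by the lowest P7 wild-type signal marked well above background, 13.3 intensity units. Some signals slightly above it were not so marked, such as Myl1 at 14.0, so such bounds are approximate. The scaled Runx2+/- level of -0.95 log2 units lay below that limit of -0.78, so the P7 genotypes have no order for Tnnc2.

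Tnnt3 encodes the fast-fibre troponin T, which ties the troponin complex to tropomyosin. The probe from base 744, the one used for the gene, read 66.3 intensity units at P5, 11.0 in the P7 wild type, where it was not well above background, and 110 in the Runx2+/- sample. It gave P7 wild type at least 2.18-fold lower than P5, and Runx2+/- at least 1.51-fold higher than P7 wild type. The probe from base 705 read 41.2, 17.4 and 75.8 intensity units and was well above background on all arrays. Its differences were -0.05 log2 units for age and -0.33 for genotype, with software errors of 0.36 and 0.35. The probes therefore did not give one answer for Tnnt3: one put P7 below P5 by more than 2-fold and the other put it level, and for genotype their signs were opposite. Both are dim on the P7 wild-type array, and all probes in the dimmest of 8 equal brightness groups had a median difference of 0.44 for age and -0.70 for genotype. The part of that trend in the disagreement was not tested.

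Myl1 encodes the alkali light chains of fast myosin. Its probe at the 3′ end, from base 856 at chr1:66970948-66971007 on the minus strand, read 44.4 intensity units at P5, 14.0 in the P7 wild type, where it was not well above background, and 63.9 in the Runx2+/- sample. P7 wild type was at least 1.39-fold lower than P5, and the P7 genotypes have no order. A second Myl1 probe, near the start of another transcript, read 3.01 to 3.24 intensity units and rose above background nowhere. Mylpf, the regulatory light chain of fast fibres, has a single probe from base 69, near the 5′ end of its transcript. It read 2.59 to 2.93 intensity units, so of the light chain probes in the set only the 3′ one of Myl1 gave a signal.

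Among the myosin heavy chains, the perinatal chain Myh8 was measured and the others of the set were not. The Myh8 probe from base 5937 read 70.6 intensity units at P5, 19.6 in the P7 wild type and 140 in the Runx2+/- sample, all well above background. Its scaled levels were 0.44, -0.21 and 0.17 log2 units. Unlike Acta1 and Tnni2, Myh8 was lowest in the P7 wild type. P7 wild type lay 0.65 log2 units below P5 (1.57-fold), and Runx2+/- lay 0.38 above P7 wild type (1.30-fold), with software errors of 0.32 in both comparisons. The 3 other Myh8 probes, from bases 477, 2200 and 2970 of their transcripts, read 2.74 to 3.74 intensity units and were not well above background anywhere.

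The embryonic chain Myh3 has probes from bases 5779 and 5922, both close to the 3′ end, and they read 2.92 to 6.33 intensity units without rising well above background. The adult fast chain Myh4 has a probe from base 5901, at chr11:67073834-67073893, which read 2.64, 3.05 and 2.91 intensity units. The planned contrast of perinatal with adult myosin, the mean difference of Myh3 and Myh8 minus that of Myh4, therefore has no value in any comparison or setting. Not well above background gives only an approximate upper bound for Myh4 and Myh3. The lowest signals marked well above background were 12.0 to 13.3 intensity units over the arrays, and some signals slightly above these were not marked.

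Adult chains outside the set could be read at a like position in their transcripts. Myh1, an adult fast chain, has 1 probe, from base 5943. It read 2.66 and 7.04 intensity units on the P5 and P7 wild-type arrays, neither well above background, and 47.2 on the Runx2+/- array, where it was. Myh2, the other adult fast chain, read 2.68, 3.21 and 42.9 intensity units and was likewise measured on the Runx2+/- array alone. Against P5 wild type, Myh1 was at least 0.72 and Myh2 at least 0.58 log2 units higher in the Runx2+/- sample, whereas Myh8 was 0.27 lower. Age and genotype both differ in that pair and cannot be told apart there. Against P7 wild type neither has an order. Their scaled levels of -1.40 and -1.53 on the Runx2+/- array lie below the lowest level marked well above background on the dim array. Myh7, the slow chain, read 13.7 intensity units at P5 and 26.2 in the Runx2+/- sample, both well above background, and 2.99 in the P7 wild type. Myh6, the cardiac chain, was well above background on no array.

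Ckm encodes the muscle creatine kinase, which rebuilds ATP beside the contracting filaments and is an abundant mRNA of mature fibres. Its probe, from base 707 and spanning chr7:20002222-20004829 across an intron, read 3.22, 3.50 and 3.43 intensity units, at the level of the other undetected probes.

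**Figure D2:**
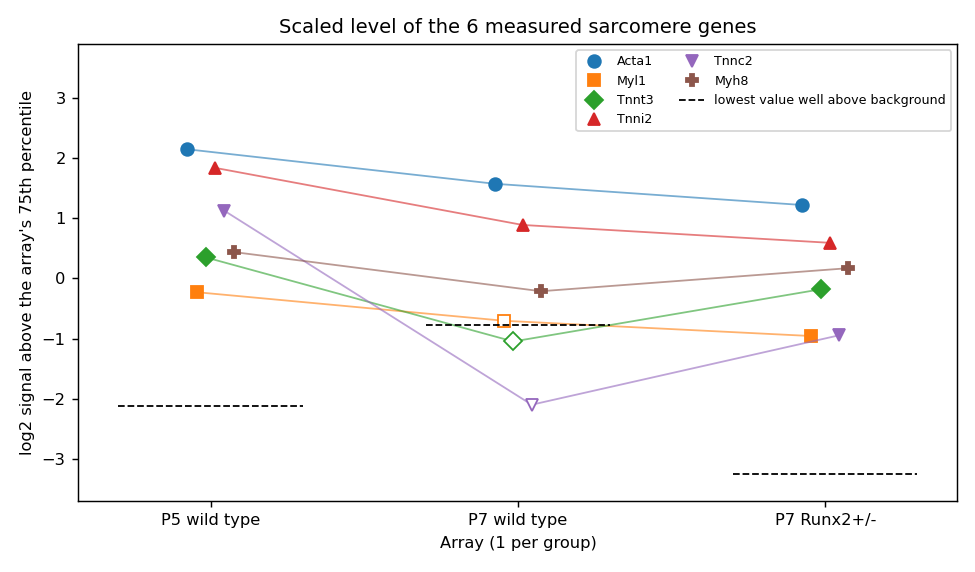
Scaled level (log2 signal above the array's 75th percentile) of the 6 measured sarcomere genes on the 3 arrays, 1 array per group and 1 probe per gene, with open points not well above background and dashed lines at the lowest level that was. At P5 the 6 genes lie between -0.23 and 2.15, in the P7 wild type Myl1, Tnnt3 and Tnnc2 are open, and in Runx2+/- all 6 are filled again.

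As a list for age, 6 of the 10 genes had an order between P7 and P5 wild type, and all 6 were lower at P7 by the probe used for each gene, with a median difference of -0.80 log2 units (1.74-fold) and a range from -1.90 to -0.48. Over the 14341 genes with an order the median was 0.03, and 48.1% were lower. Of the members, 2 were at least 2-fold lower (Tnnc2 and Tnnt3), as were 3.29% of all genes, and 0 were at least 2-fold higher, against 6.35% of all genes. Averaged over all its probes, Myh8 turned to 0.84 log2 units above P5. In that mean, 3 undetected probes stand at each array's lowest value well above background, -2.12 at P5 and -0.78 in the P7 wild type. They carry no Myh8 signal. For 3 of the 6 the P7 value was not well above background, and such a gene could enter only as lower. Over the 3 genes measured on both arrays, Acta1, Tnni2 and Myh8, the median was -0.65, against 0.08 for all genes so measured. Each lay below the median of probes of like brightness, which was between 0.04 and 0.07. In bulk RNA, fewer fibres and less of these mRNAs per fibre cannot be told apart. With 1 array per group, neither can be told apart from a difference in the dissection, the RNA or the array.

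For genotype, 4 members had an order between P7 Runx2+/- and P7 wild type. Acta1 and Tnni2 were lower, and Myh8 and Tnnt3 were higher. The median was 0.04 log2 units, beside 0.13 over 14429 genes, and the members ranged from -0.35 to 0.59. None was at least 2-fold higher, against 5.2% of all genes, and none at least 2-fold lower, against 13.8%. Background-corrected differently (normexp), Acta1 and Tnni2 turned to 0.24 and 0.08 log2 units above the wild type. Myh8 stood at 0.17 and the bound for Tnnt3 at 0.01. The median of all genes moved to 0.62, so all 4 lay below it, Myh8 and Tnnt3 included. The split of the members into lower and higher thus depended on the background correction. With the mean over all probes, Myh8 turned from 0.38 to -1.76. There its 3 undetected probes stand at each array's lowest value well above background, -0.78 in the P7 wild type and -3.25 in Runx2+/-. They carry no Myh8 signal. The age and genotype comparisons share the P7 wild-type array, and no relation between them was drawn.

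Against P5 wild type, all 6 measured genes were lower in the Runx2+/- sample, and all were well above background on both of these arrays. The differences were -2.07 log2 units for Tnnc2, -1.25 for Tnni2, -0.93 for Acta1, -0.73 for Myl1, -0.53 for Tnnt3 and -0.27 for Myh8. Their median was -0.83, against 0.11 over 18181 genes. Tnnc2 (4.21-fold) and Tnni2 (2.37-fold) were at least 2-fold lower, as were 15.3% of all genes, and 0 members were at least 2-fold higher, against 8.67%. The second Tnnt3 probe gave -0.38 here, so both Tnnt3 probes had the same sign in this pair.

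Without scaling, the order of the arrays is another one. The P7 wild-type array was the lowest of the 3 for each detected member, and the Runx2+/- array read as high as or higher than the P5 array for every one but Tnnc2. Acta1, for example, was 1.77 log2 units lower on the P7 than on the P5 wild-type array before scaling, while the 75th percentiles of these arrays differed by 1.19. On the Runx2+/- array it read 0.33 log2 units above P5 before scaling, while the 75th percentile lay 1.26 higher.

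The position of a probe along its transcript was set beside detection. Of 2487 transcripts with probes at least 1000 bases apart, the probe nearest the 5′ end was well above background in 56.8% and the one nearest the 3′ end in 62.2% at P5. The shares were 34.8% and 46.4% in the P7 wild type, and 62.9% and 74.2% in the Runx2+/- sample. Within transcripts the log2 difference rose towards the 3′ end by a median of 0.17 per kb for age, 0.13 for genotype and 0.35 for Runx2+/- against P5 wild type. The undetected Myh8 and Myl1 probes have lower starts than the detected probe of the same gene, though some count along other transcripts. The undetected Myh8 probes from bases 2200 and 2970 start beyond the detected Acta1 probe, from base 919. The undetected Ckm probe, from base 707, starts near the detected Tnnt3 probe from base 705. Those of Myh3 and Myh4 start about as far along as the detected Myh8 probe. Starts count from the 5′ end, so between transcripts of unlike length they do not compare the distance to the 3′ end. The part of position in the member values was not tested.

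The wider muscle programme was read from 7 lists with 81 other genes, drawn up with earlier results of these arrays known. Of these, 40 were well above background on at least 1 array, 30 at P5, 23 in the P7 wild type and 36 in the Runx2+/- sample. Of all genes, 48.5%, 37.5% and 55.4% were, in the same order, a larger share than in these lists on each array. For age, 24 had an order, with 20 higher and 4 lower at P7 and a median of 0.22 log2 units. None was at least 2-fold lower, against 3.29% of all genes, and 3 were at least 2-fold higher, against 6.35%. The members and the other muscle genes thus lay on opposite sides of 0 for age, -0.80 against 0.22, and with 1 array per group that gap has no test. For genotype 23 had an order, with 12 lower and 11 higher, a median of -0.26, 0 at least 2-fold higher and 3 at least 2-fold lower, beside 5.2% and 13.8% of all genes.

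Genes for other fast-fibre proteins gave mixed values. Actn3, the fast-fibre alpha-actinin of the Z-disc, read 27.3 intensity units at P5, 20.4 in the P7 wild type and 134 in the Runx2+/- sample, all well above background. Its scaled level was 0.77 log2 units higher at P7 than at P5, and 0.27 higher in Runx2+/- than in the wild type at P7. Pvalb, the calcium buffer parvalbumin, read 104, 39.7 and 418 intensity units, a difference of -0.19 for age and 0.95 for genotype. Neither followed Acta1. Tpm1, a tropomyosin that many cell types make, was 0.79 higher for age with its brightest of 6 probes, which read 539, 406 and 2631 intensity units, but the probe from base 1737 read 198, 32.8 and 166.

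Of the list of slow-fibre and cardiac-shared genes, 4 had an order for age, with a median of 0.15 log2 units. Tnnt1, the slow troponin T, was 0.23 higher for age and 0.67 higher for genotype. Myl2, a regulatory light chain of slow fibres and heart, was at least 1.11-fold lower at P7 than at P5. Mybpc1, a myosin-binding protein of the thick filament, was measured only on the P7 wild-type array, where it read 37.2 intensity units against 3.56 at P5 and 2.67 in Runx2+/-. That made it at least 7.10-fold higher than at P5 and at least 15.5-fold higher than in Runx2+/-. Its second probe gave no signal well above background.

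A pair of genes for excitation and the synapse also had a higher scaled level in the P7 wild type. Chrna1, the alpha subunit of the muscle acetylcholine receptor, read 21.8 intensity units on the P7 wild-type array and 2.63 and 2.90 on the others, where it was not well above background. Its second probe gave no such signal anywhere. Scn4a, the sodium channel of muscle fibres, read 16.8, 29.1 and 31.5 intensity units, so before scaling it was highest in Runx2+/-. Its scaled level was 1.99 log2 units higher at P7 than at P5 and 2.34 lower in Runx2+/- than in the P7 wild type. Stac3, which is needed to couple excitation to calcium release, differed less, by 0.53 and 0.29.

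Eno3, the muscle enolase of glycolysis, lay 0.69 log2 units lower at P7 than at P5, with 630 and 170 intensity units, and 0.02 apart between the genotypes. Pgam2, the muscle phosphoglycerate mutase, lay 0.73 higher for age and 0.91 lower for genotype. Over 6 ordered genes of muscle energy enzymes the median was 0.14 for age and -0.40 for genotype.

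The myogenic regulators Myod1 and Myog and the satellite cell marker Pax7 were well above background on no array, nor was Actc1, the cardiac actin that developing skeletal muscle also makes. Of 8 developmental isoforms 2 were measured. Myl4, the embryonic and atrial light chain, was 0.13 log2 units higher for age and 0.11 for genotype, and Ncam1, an adhesion molecule that nerve also makes, 0.57 higher and 0.75 lower. Des, the intermediate filament desmin, read 13.6 intensity units at P5, 5.45 in the P7 wild type and 28.9 in Runx2+/-, and was well above background on the first and the last. Ttn, which encodes titin, was measured with 1 of its 4 probes and on the Runx2+/- array alone, at 38.2 intensity units.

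**Figure D3:**
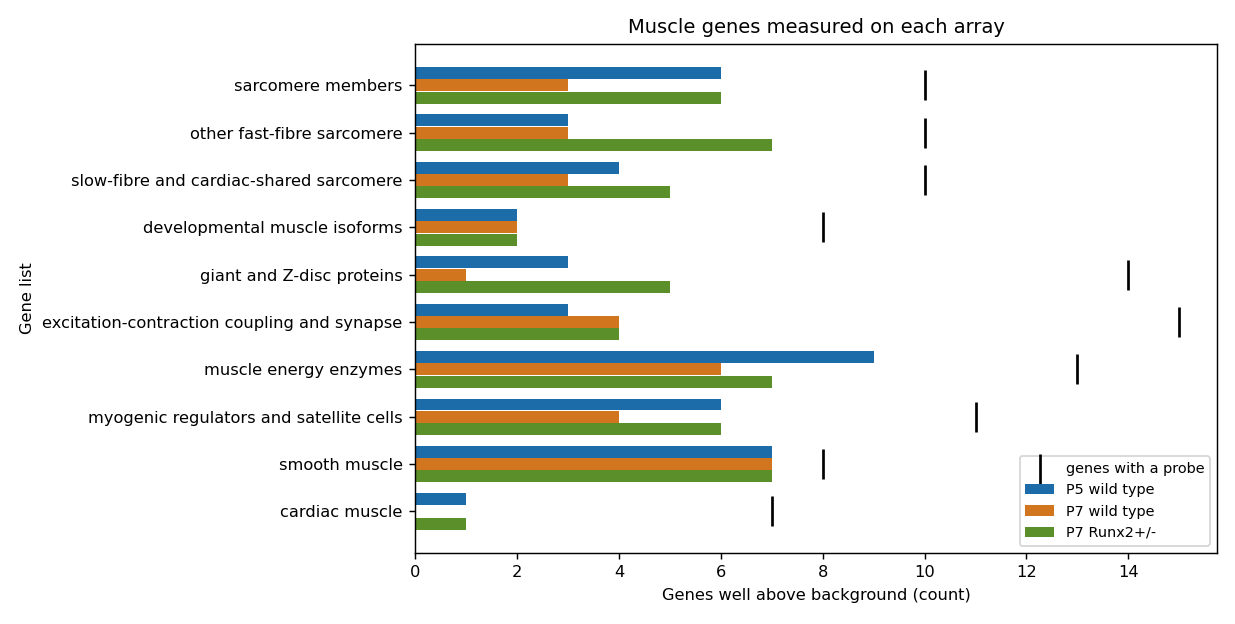
Number of genes well above background on each array (bars, from 0) in the sarcomere set and 9 muscle lists, each gene by its brightest probe, with a black mark at the number of genes that have a probe. The sarcomere set shows 6, 3 and 6 genes of 10, and by any probe 4 in the P7 wild type, while smooth muscle shows 7 of 8 on all arrays.

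Markers of other tissues that a suture sample can hold moved with the same comparisons. Smooth muscle genes were measured on all arrays (7 of 8), with Acta2, the smooth muscle actin, at 9746, 3904 and 10913 intensity units. Their median difference was 0.40 log2 units for age and -0.46 for genotype. Their summed signal was 20807, 9048 and 31911 intensity units before scaling, in the same order. That is 400, 398 and 257 times each array's 75th percentile. In cardiac muscle, 1 of 7 genes was measured, Tnni3, and Myh6, Nppa and Myl7 were well above background on no array. Genes of tendon, the tissue that joins muscle to bone, had medians of 0.18 for age and 1.11 for genotype over 4 ordered genes. Their summed signal before scaling was 1631, 931 and 11681 intensity units at P5, in the P7 wild type and in Runx2+/-. That is 31.3, 40.9 and 94.0 times each array's 75th percentile. Among them Tnmd, a tendon membrane protein, was 1.61 higher and Fmod, a collagen-binding proteoglycan, 1.19 higher in Runx2+/- than in the P7 wild type. The part of these tissues in the sarcomere values was not tested.

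Neutrophil genes shifted more than the sarcomere genes, with medians of -3.57 log2 units for age and 2.19 for genotype over 7 of 7 genes. Their summed signal before scaling was 43103 intensity units at P5, 1666 in the P7 wild type and 41014 in Runx2+/-. That is 828, 73.2 and 330 times each array's 75th percentile. Neural and glial genes had medians of -0.80 and 0.04 over 7 ordered genes of 10. Their summed signals before scaling were 14676, 5796 and 8451 intensity units, of which Snap25 alone gave 13888, 5662 and 7518. Scaled, the sums were 282, 255 and 68.0 times each array's 75th percentile. Of 7 epidermal genes 3 were measured at P5, 0 in the P7 wild type and 4 in Runx2+/-. Osteoblast genes, 10 of 10 of which were measured on all arrays, had a median of 0.58 for age, and 8 of 10 were at least 2-fold lower in Runx2+/- than in the wild type at P7, against 13.8% of all genes. Erythroid genes, with 3 of 5 measured, had medians of -0.56 for age, -0.66 for genotype and -1.08 for Runx2+/- against P5, and 3 of 3 were lower in each. Their summed signal before scaling was 28506, 7573 and 28709 intensity units. Scaled, it was 547, 333 and 231 times each array's 75th percentile. Neutrophil genes (6 of 7), neural genes (6 of 7) and erythroid genes (3 of 3) were lower at P7 than at P5, as the sarcomere genes were. Of all genes with an order, 48.1% were lower. Smooth muscle genes (5 of 7), osteoblast genes (8 of 10) and suture mesenchyme genes (4 of 5) were higher at P7, as were 2 of 4 tendon genes. The 2 epidermal genes with an order for age were not well above background in the P7 wild type and could enter only as lower. How much attached tissue each dissection held was not tested.

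**Figure D4:**
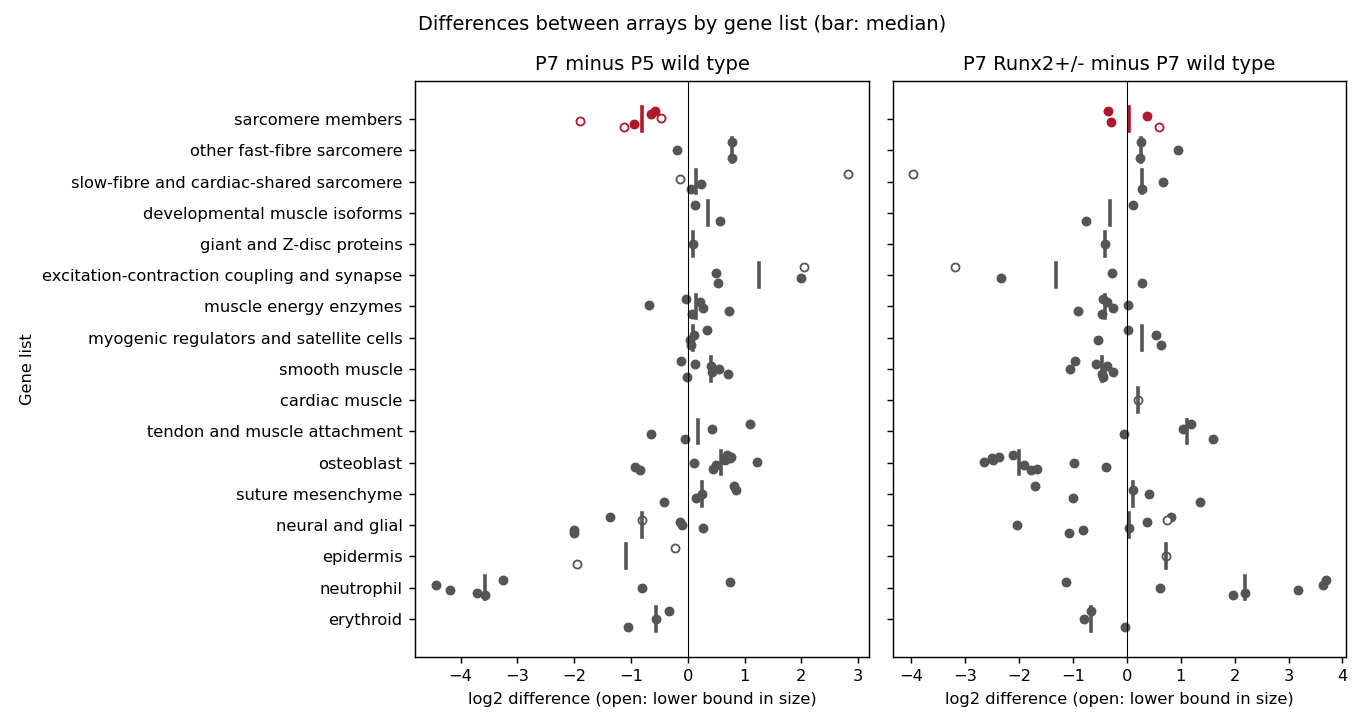
Log2 differences for age (left) and genotype (right), 1 point per gene with an order, for the sarcomere set (red) and the other lists (grey), with a bar at each list's median and open points where the size is a lower bound. The sarcomere genes lie between -1.90 and -0.48 for age and between -0.35 and 0.59 for genotype.

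Genes with a like pattern were looked for among 12821 genes well above background on all arrays. The pattern was the mean of Acta1, Tnni2 and Myh8 after centring each on its own mean, which gave 0.51 log2 units at P5, -0.21 in the P7 wild type and -0.30 in Runx2+/-. The nearest named genes were Marchf3, Zfp958, Selenov, Slc15a3 and Cep162, at distances of 0.014 to 0.030 log2 units. The members themselves lay farther from their own mean, at 0.19 for Acta1, 0.31 for Tnni2 and 0.42 for Myh8, and 1347 genes lay within the last of these. With 3 arrays, such likeness singles out no gene.

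Promoters were read from RefSeq (GRCm38.p6), which matched 8 of the 10 genes. The 250 bases before the transcript start are shown for Acta1 and Myh8, which were measured on all arrays, and for Myh4, the neighbour of Myh8 that was measured on none. Capitals mark matches, on either strand, to the E-box CANNTG bound by myogenic factors, to the CArG box of serum response factor, to the MEF2 box and to TATAAA. The regions are chr8:123894776-123895025 on the minus strand for Acta1, and chr11:67276874-67277123 and chr11:67237562-67237811 on the plus strand for Myh8 and Myh4.
Acta1: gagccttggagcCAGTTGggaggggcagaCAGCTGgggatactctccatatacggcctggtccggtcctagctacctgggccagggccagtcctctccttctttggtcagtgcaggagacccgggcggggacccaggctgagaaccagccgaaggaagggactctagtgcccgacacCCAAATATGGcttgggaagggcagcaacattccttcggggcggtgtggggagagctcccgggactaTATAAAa
Myh8: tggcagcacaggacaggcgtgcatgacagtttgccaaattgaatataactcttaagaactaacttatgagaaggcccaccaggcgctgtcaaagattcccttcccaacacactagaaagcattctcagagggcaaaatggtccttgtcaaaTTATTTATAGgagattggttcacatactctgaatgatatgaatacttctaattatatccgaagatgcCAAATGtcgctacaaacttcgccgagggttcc
Myh4: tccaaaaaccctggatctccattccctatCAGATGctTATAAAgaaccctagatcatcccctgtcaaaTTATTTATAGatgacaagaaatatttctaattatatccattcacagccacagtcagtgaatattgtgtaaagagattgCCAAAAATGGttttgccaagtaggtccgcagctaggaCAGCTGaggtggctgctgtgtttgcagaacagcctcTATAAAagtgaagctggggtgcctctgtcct

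The Acta1 window holds a CArG box at -73 from the start, and the Myh4 window holds one at -104. MEF2 boxes with the same letters stand at -182 in Myh4 and -99 in Myh8, and the TATAAA match of Myh8, at -96 on the other strand, overlaps its MEF2 box. Over all 8 member windows, 8 held an E-box, as did 66.2% of 32851 windows of the same length, and 5 held its form CAGCTG, against 13% of all. A CArG box stood in 2 of 8 against 1.47%, a MEF2 box in 2 of 8 against 2.92% and TATAAA in 5 of 8 against 12.4%. An E-box, a MEF2 box and TATAAA stood before both the measured Myh8 and the unmeasured Myh4, while the CArG box and the CAGCTG form stood before Myh4 and not before Myh8. The letters describe these windows and no more.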

How the data were processed

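RNA of 3 samples was measured on 1 array each, and groups were taken from the labels. Per the file headers, the images were read with Agilent Feature Extraction 10.7.1.1 (the submitters' processing notes name 9.5.1.1). Each spot's deposited value is a linear intensity after the software's background correction, per the file headers. A second table of intensity values from the authors served only as an alternative, since the sources used here do not give its steps.

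Control spots and outlier spots were left out, spots of a probe were averaged on the log2 scale, and each array's 75th percentile was subtracted. A probe not well above background was set to the array's lowest value well above background unless its own value was higher. A gene with several probes was read by its brightest. A difference with 1 side above background was taken as a lower bound, kept only where that side was the higher, and other genes have no order. The threshold was 2-fold. Without replicates there was no test. The number of arrays and the signal over background limit the precision.

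Members were matched by the gene name in the files. Other genes were named through RefSeq accessions (27235 probes). The members and the 17 lists (158 entries) were chosen with earlier results of these data known. The genes named are all members, up to 4 genes of each other list with the largest differences, a panel of defining markers and the genes of most similar pattern. Nppa and Myl7 and the probes of Tpm1, Mybpc1 and Chrna1 were added after their values were seen. The planned myosin contrast could not be formed. Alternatives were quantile and cyclic loess normalization, the 75th percentile of probes measured on all arrays, normexp (offset 50, limma 3.58.1, R 4.3.3), no floor, a stricter filter, other probe summaries, the authors' values, accession names, leaving out saturated spots, and thresholds of 1.5-fold and 3-fold. The steps ran in Python 3.11.15 with pandas 2.3.3 and were tested on simulated data.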

Additional observations from a re-analysis of the deposited data

How the results depend on the processing

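Counts of members rest on few genes and on how dim probes are treated. For age, the median of -0.80 log2 units became -0.51 with normexp and -0.59 with the mean over all probes, and it stayed below 0 in the 11 alternatives run, from -0.90 to -0.51. The 2 members at least 2-fold lower became 0 with normexp, 0 with only genes above background on all 3 arrays, which drops Tnnc2 and Tnnt3 by construction, 1 with the mean over probes, 1 with each gene's 3′ probe, 4 at 1.5-fold and 1 at 3-fold. For genotype, the median of 0.04 became -0.30 with genes above background on all 3 arrays, -0.33 with the mean over probes and -0.31 with each gene's 3′ probe, which takes the other Tnnt3 probe. The 0 members at least 2-fold higher became 1 without a floor and 1 at 1.5-fold, and the 0 lower became 1 with the mean over probes. That 1 was Myh8, whose undetected probes stand at each array's lowest value well above background in the mean. For Runx2+/- against P5 wild type, the median of -0.83 became -0.48 with normexp. The cause was not tested where none is named.

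By gene, Acta1, Tnni2, Tnnc2 and Tnnt3 were lower at P7 than at P5 in 7 of 7 scalings and summaries, and Myh8 in 6 of 7. The exception was 0.84 for the mean over its probes, 3 of which were never above background. Those 3 enter the mean at each array's lowest value well above background. Myl1 was lower in 6 of 6. The choice of each gene's 3′ probe was not among these settings, and with it Tnnt3 lay at -0.05 log2 units, level with P5. Normexp moved the median of all genes to -0.24 for age and 0.62 for genotype. Relative to that age median, Acta1, Tnni2 and Tnnc2 lay at -0.46, -0.53 and -0.47 log2 units and Tnnt3 at -0.07, while Myh8 lay at the median and the bound for Myl1 lay 0.24 above it. The share of 2-fold calls that were higher went from 65.8% to 3.3% with normexp, 38.5% without a floor and 80.3% with the mean over probes for age. It went from 27.4% to 89.1%, 41.2% and 15.8% for genotype, and from 36.2% to 69.6% with normexp, 49.2% without a floor and 23.6% with the percentile of shared probes for Runx2+/- against P5. Leaving out saturated spots and adding accession names changed no value. No paired analysis was possible because each group has 1 array. Leaving out a replicate was not possible for the same reason.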
